A study of Danio rerio with 6 samples.

Results

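The RNA exosome subunit genes *exosc1* to *exosc10* were followed in the heads of zebrafish embryos that lack the splicing factor gene *prpf31*. The genes were found by symbol in the deposited tables, and 10 of 34965 genes matched, one for each symbol. All 10 were expressed and passed the filter on low counts, with 256 to 2979 counts in a library. The data are 6 RNA-seq libraries of heads taken from embryos aged 36 hpf (hours post-fertilization). Of these, 3 came from *prpf31*-/- embryos (mutants) and 3 from siblings labelled wild type, all of strain AB. The mutation was made with CRISPR/Cas9 in the germ line, so every cell of a mutant head carries it. Each library came from 35 pooled heads of one genotype, and the labels call the 3 libraries of a group independent biological replicates. At this age the paper found Prpf31 protein strongly reduced in mutants but still detectable, which it puts down as likely to maternal supply. This limits the mutants as a model of complete loss.

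The RNA exosome degrades and trims RNA from its 3′ end. In yeast and human cells, 6 proteins related to the bacterial enzyme RNase PH (the products of *exosc4* to *exosc9*) form a ring with a central channel, and 3 RNA-binding proteins (the products of *exosc1*, *exosc2* and *exosc3*) form a cap on it. The animal ring has no catalytic activity of its own, and the RNA is cut by Dis3 at the bottom of the channel and by Exosc10 at the top in the nucleus. The nuclear exosome trims the ends of small nucleolar RNAs and ribosomal RNA precursors and removes RNAs that were not spliced correctly, while the cytoplasmic exosome works in mRNA turnover. Mutations in several human subunit genes cause disorders of the cerebellum, motor neurons or retina, and mutations in human *PRPF31* cause retinitis pigmentosa. The comparison of mutants with siblings asks whether the mRNA levels of the subunits differed when *prpf31* was lost.

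The total count was 58706617 to 65799306 in siblings and 65612727 to 66381302 in mutants. Levels are given as CPM (counts scaled to library size and by the TMM factors of edgeR), and groups were compared with edgeR's quasi-likelihood test, whose p values were adjusted by the Benjamini-Hochberg method over the 24277 genes tested. A gene was called at an adjusted p of 0.05 or lower. The count of *prpf31* was 2310, 2480 and 2636 in siblings and 1203, 1663 and 1864 in mutants, which follows the labels (log2 fold change −0.62, adjusted p = 0.018 in edgeR). Mutant 1 stood apart, with a TMM factor of 0.8155 against 1.018 to 1.064 in the other libraries and 14.49% of its counts in 10 genes, against 8.142% to 9.543%. All matched markers of the head, trunk and other tissues had counts. Of the 12 neural head markers, edgeR called 0, where it called 7.79% of all genes tested. An unadjusted p below 0.05 was reached by 1, against 24.2% of all genes, and DESeq2 called 1, against 14.6%. The median log2 fold change of the 12 was −0.48, with 8 negative and 4 positive. In 4 every mutant lay below every sibling, against 17.4% of all genes, and in 0 above, against 14.9%. The summed CPM of the neural markers was 371.9 in mutant 1, 808.7 and 909.9 in mutants 3 and 2, and 864.8 to 942.1 in siblings. That of 8 markers of the posterior trunk and tail was 105 in mutant 1, 36.9 and 49.4 in mutants 2 and 3, and 41.3 to 50.1 in siblings. The 9 skeletal muscle genes summed to 32335 in mutant 1, to 11977 and 12332 in mutants 3 and 2, and to 13987 to 17211 in siblings. The edgeR fit was repeated without this library, and values from that fit are given for some of the genes. No term for tissue content was put into a fit, and the part of this library in the results below was not otherwise tested.

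No subunit gene was called in either direction. Of all genes tested, 7.79% were called, 3.96% higher and 3.83% lower in mutants, and 3.34% were also changed by at least 2-fold. The 10 genes had fold changes close to 1. Their median log2 fold change was −0.09, against 0.02 over all genes tested, and 9 of the 10 were negative, against 48.3% of all genes. The median size of the change, without its sign, was 0.09 on the log2 scale for the subunits and 0.29 for all genes. All genes include ones with far fewer counts than the subunits, and the genes compared were not matched by level. The 95% interval of every subunit lay within a 2-fold change, with a lowest bound of 0.621-fold (*exosc4*) and a highest of 1.49-fold (*exosc1*). At an unadjusted p below 0.05, *exosc4* and *exosc6* passed, where 24.2% of all genes did. DESeq2 called 1 subunit, *exosc4*, and 14.6% of the genes it tested.

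**Figure D1:**
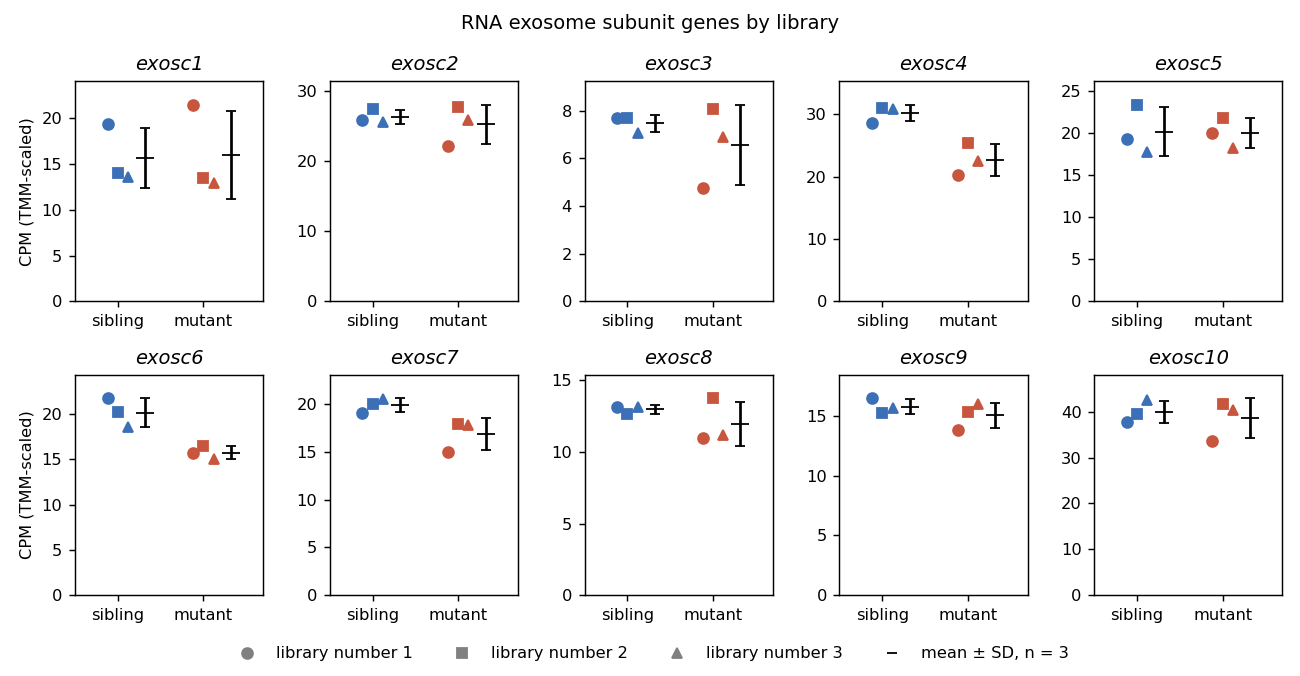
CPM after TMM scaling of the 10 subunit genes in each library, with blue for siblings, red for mutants, a marker shape for the library number and black bars for the mean ± SD (n = 3). The groups are apart in *exosc4*, *exosc6* and *exosc7* and overlap in the other 7 genes, and mutant 1 is the lowest library in 7 of the 10.

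The 3 members with the most negative log2 fold changes were ring genes. The ring's summed CPM was 118, 122 and 117 in siblings and 95.8, 111 and 101 in mutants. All 6 had a negative log2 fold change, with a median of −0.18, and in 3 of them every mutant lay below every sibling. Of the 6, *exosc5* and *exosc9* were near 0 (−0.01 and −0.07). A negative sign was not particular to the ring, since 2 of the 3 cap genes and *exosc10* had it too. Over the 10 subunits, 3 (30%) had groups that did not overlap, against 32.3% of all genes tested. All 3 lay lower in mutants, as did 17.4% of all genes.

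*exosc4* encodes the ring subunit called Rrp41 in yeast, which pairs with the product of *exosc9*. Its level was 28.7, 31.0 and 30.9 CPM in siblings and 20.2, 25.4 and 22.6 CPM in mutants. Every mutant lay below every sibling, and mutant 1 was lowest. The means were 30.2 ± 1.35 and 22.7 ± 2.57 CPM (SD, n = 3), a 0.752-fold level with a log2 fold change of −0.41 (SE 0.12, interval −0.69 to −0.13). The edgeR test did not call it (unadjusted p = 0.00919, adjusted p = 0.0801). DESeq2 gave −0.40 and an adjusted p of 0.0407. Without mutant 1, edgeR gave −0.34 and an adjusted p of 0.0487 in a fit that called 16.4% of the genes tested. Across all 15 alternatives the adjusted p of edgeR, DESeq2 or limma ran from 0.0407 to 0.249, and the log2 fold change from −0.55 to −0.34. In heads sequenced in bulk, fewer cells of a type and less RNA per cell cannot be told apart.

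*exosc6* encodes the ring subunit known as Mtr3, the partner of the *exosc7* product. It measured 21.8, 20.2 and 18.6 CPM in siblings and 15.7, 16.5 and 15.0 CPM in mutants. The groups did not overlap, and the mutants lay close together. The means were 20.2 ± 1.56 and 15.8 ± 0.743 CPM (SD, n = 3), a 0.781-fold level. The log2 fold change was −0.36 (SE 0.11, interval −0.62 to −0.10, adjusted p = 0.1 in edgeR). Without mutant 1 it was also −0.36, and none of the 15 alternatives called it (adjusted p 0.0535 to 0.296 over edgeR, DESeq2 and limma).

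*exosc7*, whose product is the Rrp42 subunit, showed 19.1, 20.0 and 20.5 CPM in siblings and 15.0, 17.9 and 17.8 CPM in mutants. The mutants were again all lower, with mutants 2 and 3 close to the lowest sibling. The log2 fold change was −0.23 (SE 0.12, edgeR adjusted p = 0.268), and −0.16 without mutant 1. Both genes of the *exosc6* and *exosc7* pair were thus below the siblings in every mutant.

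*exosc9*, the partner of *exosc4*, measured 16.5, 15.2 and 15.7 CPM in siblings and 13.9, 15.3 and 16.0 CPM in mutants. Mutants 2 and 3 fell among the siblings, and the log2 fold change was −0.07 (SE 0.11, edgeR adjusted p = 0.753). *exosc8* encodes the Rrp43 subunit, and human mutations in it cause a disease of the cerebellum and motor neurons. It measured 13.1, 12.6 and 13.1 CPM in siblings and 11.0, 13.7 and 11.2 CPM in mutants. Mutant 2 was the highest of the 6 libraries and mutant 1 the lowest, with a log2 fold change of −0.12 (SE 0.13, edgeR adjusted p = 0.637). *exosc5*, which encodes the Rrp46 subunit and pairs with *exosc8*, gave 19.3, 23.3 and 17.7 CPM in siblings and 20.0, 21.8 and 18.2 CPM in mutants. The library numbered 2 was highest and the library numbered 3 lowest in both groups. Its log2 fold change was −0.01 (SE 0.14, edgeR adjusted p = 0.975), with an interval of −0.33 to 0.32.

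The cap genes encode proteins with S1 domains, some of them also with KH domains, which bind RNA at the entrance of the channel. Their summed CPM averaged 49.4 in siblings and 47.8 in mutants, with overlapping ranges. *exosc1*, known as Csl4, measured 19.4, 14.0 and 13.6 CPM in siblings and 21.5, 13.5 and 12.9 CPM in mutants. The library numbered 1 was far above the other libraries in both groups, and the log2 fold change of 0.03 had the widest interval of the 10 genes, from −0.51 to 0.57 (edgeR adjusted p = 0.953). Its sign was negative in 7 of the 15 alternatives, among them the scaling by library sizes alone (−0.13) and the fit without mutant 1 (−0.25). With the library number in the fit as a block, its SE fell from 0.23 to 0.12 and its log2 fold change was 0.01.

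*exosc2*, the Rrp4 subunit, is a gene whose human mutations cause a syndrome with retinitis pigmentosa. It measured 25.9, 27.4 and 25.6 CPM in siblings and 22.2, 27.7 and 25.9 CPM in mutants. Only mutant 1 lay outside the sibling range on the lower side, and the log2 fold change was −0.06 (SE 0.12, edgeR adjusted p = 0.807), or 0.018 without mutant 1. *exosc3*, the Rrp40 subunit and the gene most often mutated in pontocerebellar hypoplasia with motor neuron loss, was the least abundant member, with 7.69, 7.68 and 7.05 CPM in siblings and 4.77, 8.08 and 6.89 CPM in mutants. Its mutants were widely spread, with mutant 2 the highest and mutant 1 the lowest of all libraries. The log2 fold change was −0.18 (SE 0.20, edgeR adjusted p = 0.630), and −0.0065 without mutant 1.

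*exosc10*, the nuclear exonuclease known as Rrp6, was the member with the most counts. It measured 37.8, 39.6 and 42.5 CPM in siblings and 33.7, 41.7 and 40.4 CPM in mutants. Mutant 1 was the lowest library and the other mutants were within the sibling range. The log2 fold change was −0.05 (SE 0.12, interval −0.33 to 0.23, edgeR adjusted p = 0.840), and 0.031 without mutant 1.

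Mutant 1 was the lowest mutant in 7 of the 10 genes, with a median of −0.21 (log2) for mutant 1 against the mean of mutants 2 and 3. Without it, the median log2 fold change of the 10 genes was −0.04, and 8 of the 10 were negative. The summed CPM of all members was 209, 211 and 205 in siblings and 178, 202 and 187 in mutants. Siblings and mutants share the library numbers 1 to 3. Within equal numbers *exosc4*, *exosc6* and *exosc7* were lower in the mutant in 3 of 3 pairs. This follows from their groups not overlapping and adds nothing to it. The other 7 genes were lower in 1 or 2 of the 3 pairs. With the number as a block, edgeR called 12.7% of all genes (3084, against 1890 without the block) and still no subunit, and *exosc4* had a log2 fold change of −0.42 with an adjusted p of 0.0504.

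**Figure D2:**
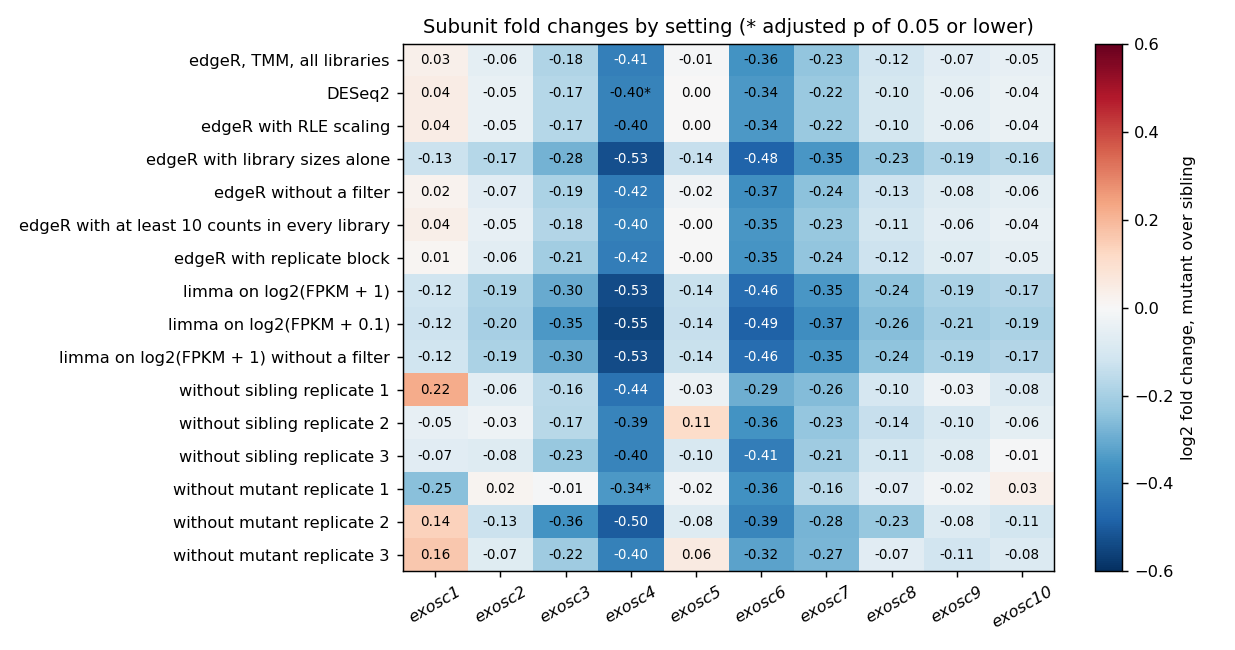
Log2 fold change of each subunit gene (columns) under the reported fit and 15 alternatives (rows), with blue for lower and red for higher in mutants and a star for an adjusted p of 0.05 or lower. The colour of *exosc4*, *exosc6* and *exosc7* stays on the lower side in all rows, and the only stars are those of *exosc4* with DESeq2 and without mutant 1.

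To set the subunits beside each other per length of gene, the deposited FPKM (fragments divided by the gene's length in kilobases and by library size) were used. In siblings the order was *exosc4* (40.5 ± 2.81), *exosc5* (35.4 ± 5.42), *exosc2* (30.4 ± 1.55), *exosc1* (26.7 ± 4.82), *exosc8* (18.3 ± 0.453), *exosc6* (17.2 ± 0.962), *exosc7* (16.5 ± 1.01), *exosc9* (15.1 ± 0.290), *exosc10* (14.1 ± 1.16) and *exosc3* (8.71 ± 0.363; FPKM, mean ± SD, n = 3). *exosc4* thus stood 4.65 times above *exosc3*, although the proteins of both genes are part of the same core. Neighbours in this order had ranges that did not overlap between *exosc1* and *exosc8*, *exosc8* and *exosc6*, *exosc7* and *exosc9*, and *exosc10* and *exosc3*. The other neighbours overlapped. The genes of the 4 highest levels were therefore set apart from the rest, and *exosc3* lay below all others.

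In mutants *exosc5* came first (32.1 ± 5.00) and *exosc4* second (28.1 ± 6.25 FPKM, SD, n = 3), with overlapping ranges. *exosc6*, sixth in siblings, had the ninth mean in mutants (12.3 ± 1.70 FPKM), but the ranges of neighbours from the fifth to the ninth place overlapped. *exosc3* remained last (7.16 ± 2.53 FPKM). The levels of the members were also expressed as shares of their summed FPKM, which do not depend on the scaling of a library. *exosc4* took 17.0%, 18.3% and 19.3% of the sum in siblings and 13.8%, 15.8% and 15.5% in mutants. Its share was lower in every mutant (exact permutation test, p = 0.1, the smallest that 3 against 3 libraries allow). *exosc6* took 7.73% ± 0.422 in siblings and 6.66% ± 0.140 in mutants (SD, n = 3), again without overlap (exact permutation test, p = 0.1). The shares of the other 8 genes, *exosc7* included, overlapped between groups. Each share also depends on the levels of the other members, and there is no like measure over all genes to set beside it. *exosc4* and *exosc6* also had the most negative log2 fold changes of the members, and the shares rest on the same counts. The shares are therefore no separate evidence for these genes, and their p values were not adjusted for the 10 shares compared.

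**Figure D3:**
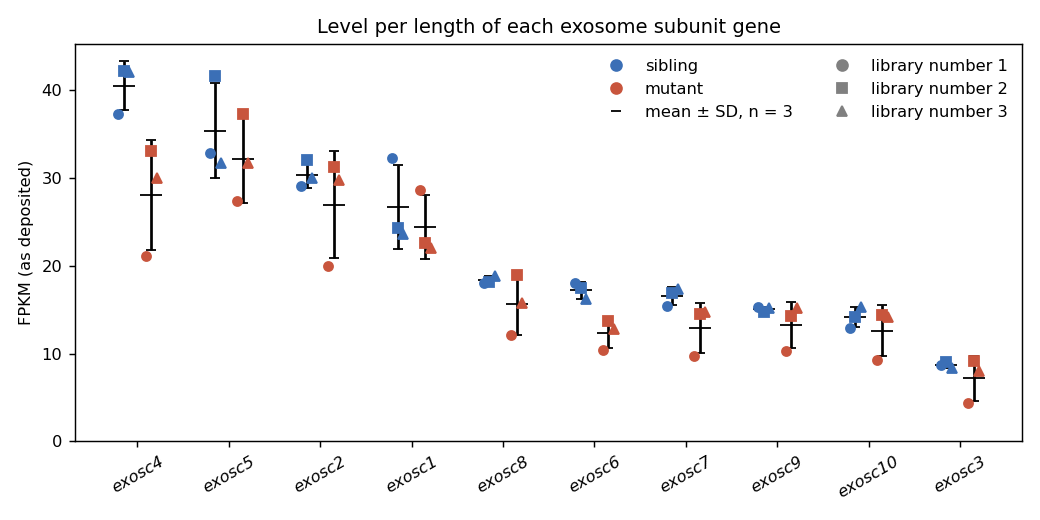
FPKM of the subunit genes in each library, ordered by the sibling mean, with blue for siblings, red for mutants and black bars for the mean ± SD (n = 3). *exosc4* is highest in siblings and *exosc3* lowest in both groups, and mutant 1 (red circles) is the lowest mutant in every gene except *exosc1*.

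Over the 6 libraries, the pattern of a gene was compared with that of the other members by Pearson's r of log2 CPM with the mean of the other 9 after each gene was standardised. The r was 0.57 to 0.90 for 8 genes, 0.13 for *exosc5* and −0.55 for *exosc1*. These values share the same libraries and the low mutant 1, so they are given as a description without a p. Of the genes outside the complex, the 5 with the pattern most like the mean of the members were *pcyt1ba* (r = 0.997), *si:ch211-10a23.2* (0.997), ENSDARG00000109770 (0.996), *cpsf2* (0.995), a subunit of the factor that cleaves and polyadenylates mRNA, and *si:ch1073-82k10.1* (0.995). All 5 were lowest in mutant 1, and edgeR called none of them.

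The exonucleases and cofactors that act with the core were examined next. Of the 23 genes matched, edgeR called 1 higher and 0 lower, where 7.79% of all genes were called. Their median log2 fold change was −0.12, and 15 were negative. At an unadjusted p below 0.05, 10 of the 23 passed, against 24.2% of all genes. DESeq2 and the fit with the block each called 2 lower and 1 higher, where they called 14.6% and 12.7% of all genes. The fit without mutant 1 called 4 lower and 2 higher, and 16.4% of all genes. *dis3*, which encodes the exonuclease at the bottom of the channel, measured 19.3, 18.8 and 17.3 CPM in siblings and 10.9, 15.5 and 15.5 CPM in mutants. The groups did not overlap, and the log2 fold change was −0.41 (SE 0.16, edgeR adjusted p = 0.173), or −0.26 without mutant 1. Its relatives *dis3l* and *dis3l2*, chosen after their values were seen, had log2 fold changes of −0.52 and −0.31 and were not called by edgeR with all libraries (adjusted p = 0.237 and 0.110). *dis3l* was called lower with the block (−0.54, edgeR adjusted p = 0.0430) and *dis3l2* without mutant 1 (−0.32, edgeR adjusted p = 0.0480).

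Among the nuclear cofactors, *mtrex* encodes the helicase that feeds RNA into the nuclear exosome. It measured 66.7, 71.5 and 71.3 CPM in siblings and 50.1, 70.2 and 64.0 CPM in mutants, with only mutant 2 inside the sibling range (log2 fold change −0.18, edgeR adjusted p = 0.470). Without mutant 1 the log2 fold change of *mtrex* was −0.067. *mphosph6* and *c1d* encode small proteins that in human cells join the helicase and Exosc10 to the core. Their log2 fold changes were 0.05 and 0.19 (edgeR adjusted p = 0.879 and 0.394), and the sign of *mphosph6* turned with library sizes alone (−0.070) and on FPKM (−0.083 at a pseudocount of 1). *rbm7*, the RNA-binding subunit of the NEXT complex, which brings short-lived nuclear RNAs to the exosome, measured 25.1, 24.1 and 24.0 CPM in siblings and 27.3, 35.9 and 31.5 CPM in mutants. Every mutant was higher, with a log2 fold change of 0.37 (edgeR adjusted p = 0.121), and it was called only without mutant 1 (0.46, edgeR adjusted p = 0.0158).

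*tent4a* was the cofactor gene that edgeR called. It encodes a poly(A) polymerase related to the one that tags nuclear RNA for decay in the TRAMP complex. Its level was 8.44, 7.74 and 8.54 CPM in siblings and 10.3, 15.0 and 14.6 CPM in mutants. All mutants lay above the siblings, and mutant 1 was the nearest to them. The log2 fold change was 0.69 (SE 0.17, edgeR adjusted p = 0.0492), and the call was lost in 11 of the 15 alternatives, with adjusted p from 0.00253 to 0.324 over edgeR, DESeq2 and limma. *nvl*, which encodes a nuclear ATPase that binds the helicase, and *ncbp3*, a cap-binding protein, were chosen after their values were seen. They had log2 fold changes of −0.50 and −0.38 (edgeR adjusted p = 0.0594 and 0.0723), and DESeq2 called both lower (adjusted p = 0.0168 and 0.0293). With the block, edgeR called *nvl* lower (−0.50, adjusted p = 0.0247), and without mutant 1 it called both (adjusted p = 0.0390 and 0.0406). The plot of fold changes shows the subunits with the associated factors.

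**Figure D4:**
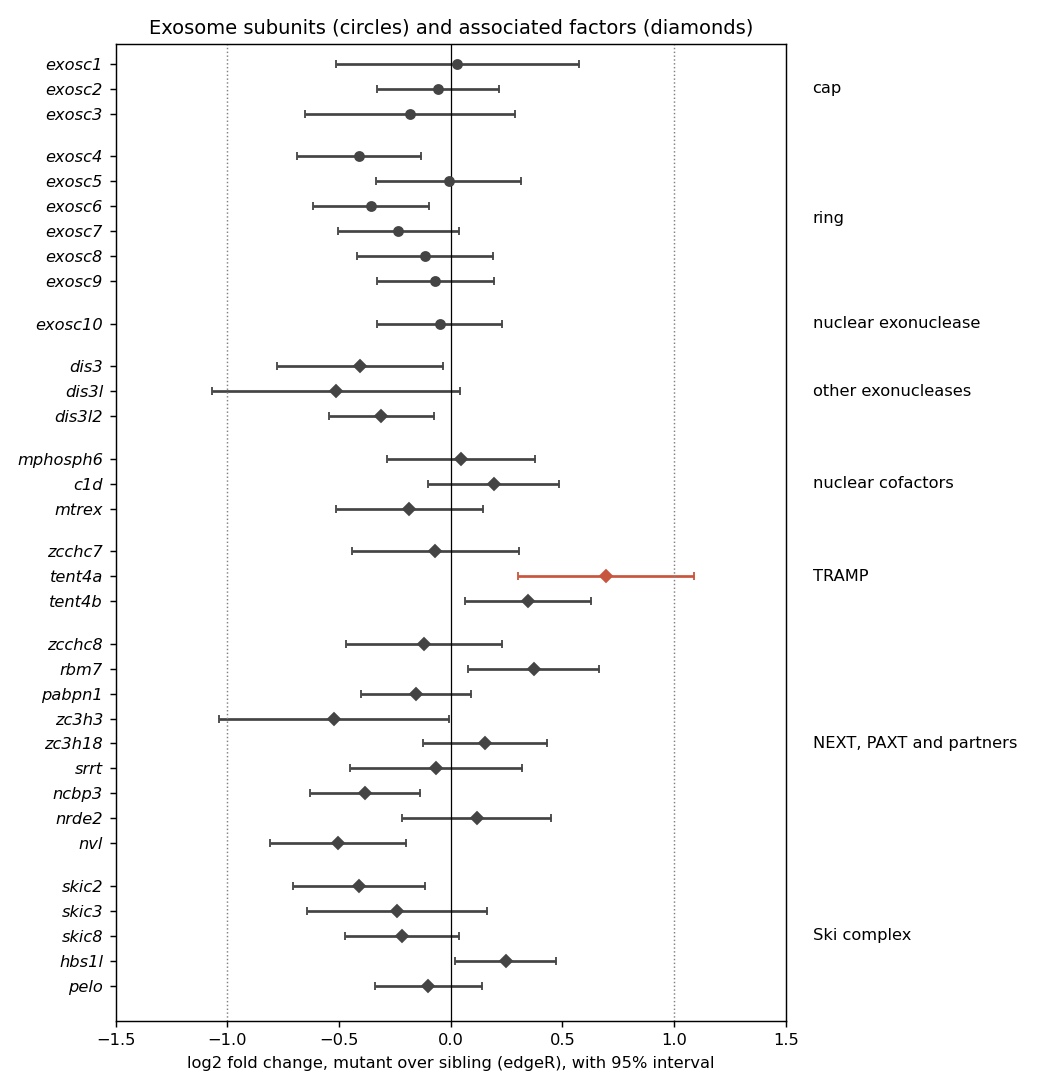
Log2 fold change of mutants over siblings with its 95% interval (edgeR) for the subunit genes (circles) and the associated factors (diamonds), by role, with dotted lines at a 2-fold change and red for an adjusted p of 0.05 or lower. The intervals of all 10 subunits lie between the dotted lines, and *tent4a* is the single gene in red.

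Genes of mRNA decay that works beside the exosome had no calls by edgeR, where 7.79% of all genes were called. For lists this short, 0 calls is not far from that share. Of 11 genes of decapping and 5′ to 3′ decay, 0 were called. An unadjusted p below 0.05 was reached by 3, against 24.2% of all genes, and DESeq2 called 1 higher, where it called 14.6% of all genes. They ranged from *dcp2*, the decapping enzyme (−0.32), to *ddx6*, a helicase of decapping (0.49, log2 fold changes). Of 15 deadenylation genes, edgeR and DESeq2 called 0, and 1 had an unadjusted p below 0.05, against the same shares. In 5 of the 15 every mutant lay below every sibling, against 17.4% of all genes, and in 0 above, against 14.9%. They ranged from *cnot6* (−0.37) to *cnot7* (0.38), both deadenylases of the CCR4-NOT complex.

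The small nucleolar RNAs, whose ends the nuclear exosome trims, were counted in 78 rows of the table, with several rows for some symbols. In total these rows had 300, 273 and 364 counts in siblings and 1218, 2013 and 2235 counts in mutants, at most 0.00341% of a library. All mutants were far above all siblings. The summed CPM was 4.80 ± 0.551 and 28.4 ± 5.14 (SD, n = 3), 5.91-fold higher in mutants (2-sided exact permutation test, p = 0.1, the smallest that 3 against 3 libraries allow). It was 6.33-fold higher without the most abundant row, and 5.46-fold to 6.50-fold with each library left out in turn. In 47 of the 78 rows every mutant was higher than every sibling, which was true of 13.6% of all rows with a count, and 23 of the 78 rows had no count at all. By edgeR, 30 rows could be tested, and 24 were called higher and 0 lower (27 and 0 by DESeq2), against 3.96% of all genes called higher. Most of the 30 passed the filter only through the mutants, since 10 of them reached 10 counts in a sibling library. With at least 10 counts required in every library, at most 10 of the 30 rows could be tested, and 3 were called higher. That fit called 1711 of all 22043 genes it tested. The number called also moved with single libraries, to 8, 7 and 7 without siblings 1, 2 and 3, 15 without mutant 2 and 8 without mutant 3. Calls over all genes, 1890 with all libraries, fell in the same fits. They were 505, 359 and 380 without siblings 1, 2 and 3, 895 without mutant 2 and 544 without mutant 3.

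The 3 rows with the highest counts all carry the symbol *snora73*, a box H/ACA RNA that in human cells takes part in making ribosomes. The first (ENSDARG00000082242) had 106, 76 and 122 counts in siblings and 370, 564 and 569 in mutants. The groups were well apart, with a log2 fold change of 2.33 (SE 0.22, edgeR adjusted p = 0.00147). The others, ENSDARG00000083108 and ENSDARG00000083400, had log2 fold changes of 2.17 and 1.74 (edgeR adjusted p = 0.0153 and 0.0182). Their calls were lost with single libraries left out. The call of ENSDARG00000083108 was lost without sibling 2, sibling 3 or mutant 3 (edgeR adjusted p 0.0591 to 0.0723), and that of ENSDARG00000083400 without any one sibling or mutant 3 (edgeR adjusted p 0.0614 to 0.0912). One *snora62* row (ENSDARG00000081943) had 0 counts in every sibling and 35, 55 and 68 in mutants, at least 53.3-fold higher when 3 counts over the sibling group are taken as the floor. At the other end, a further *snora62* row (ENSDARG00000084991) had a log2 fold change of −0.30 (edgeR adjusted p = 0.834). Rows of one symbol can hold near-identical copies, and reads can be split between them.

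By class, the 54 box C/D rows, of a kind that mostly guides methylation of RNA, were 7.79-fold higher in mutants. The 22 box H/ACA rows, of a kind that mostly guides pseudouridylation, were 5.69-fold higher. For both classes the groups did not overlap. The 2 rows of Cajal body RNAs, which guide the same changes on spliceosomal RNA, were 1.26-fold higher with overlapping groups. Other small RNAs, added to the comparison after the data were seen, differed less. The snRNA rows, which are those of U1, U2, U4 to U7 and minor snRNAs, summed to 1.31 ± 0.264 CPM in siblings and 2.04 ± 0.208 CPM in mutants (1.55-fold). The U1 rows were 1.70-fold higher with overlapping groups, and the U6 rows 1.79-fold higher without overlap. The kinds of snRNA did not all lie on the same side. The U4 rows had 5, 8 and 14 counts in siblings and 1, 4 and 4 in mutants, with every mutant below every sibling in CPM, and the U2 and U5 rows had at most 8 counts in a library and overlapped. RNase MRP and P RNA were 1.66-fold higher. For this sum and the snRNA sum the groups did not overlap. 7SK RNA was 1.37-fold higher with overlap, and 318 microRNA rows were at 0.971-fold with overlap.

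**Figure D5:**
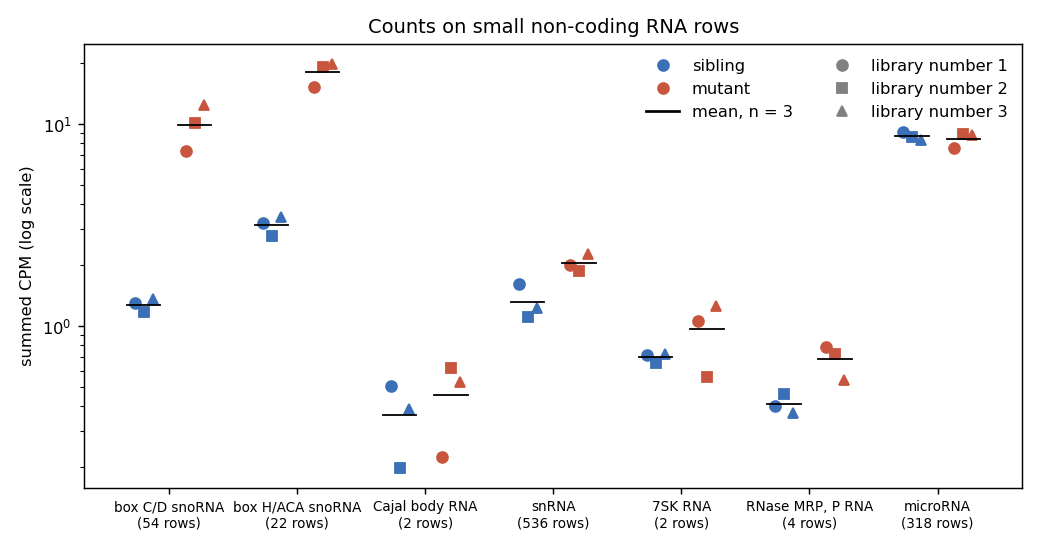
Summed CPM of small non-coding RNA rows in each library on a log axis, with blue for siblings, red for mutants, a marker shape for the library number and a line for the mean of 3 libraries. Box C/D and box H/ACA rows are 7.79-fold and 5.69-fold higher in mutants with groups far apart, and the microRNA rows overlap between groups.

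The libraries were made from poly(A)-selected RNA with fragments chosen by size, so mature small nucleolar RNAs, which are short and lack a poly(A) tail, are poorly captured. These counts do not tell mature RNA, 3′-extended or polyadenylated precursors and unspliced introns apart. In the RefSeq annotation of another assembly, 216 of 260 small nucleolar RNA genes lie within another gene. Of the 96 genes that hold them, 70 were matched to the table, and their summed CPM was 1.04-fold in mutants with overlapping groups. These genes were not linked to the 78 counted rows. In 15 of the 70 every mutant was above every sibling, and in 5 below, against 14.9% and 17.4% of all genes tested. The 69 holding genes tested by edgeR had a median log2 fold change of 0.10. Of these, 6 were called higher and 3 lower, against 3.96% and 3.83% of all genes. The part of intron reads from these genes in the counts of the small nucleolar RNA rows was not tested.

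The mRNA levels of genes for proteins that bind small nucleolar RNAs or assemble their particles changed in part. Of 12 genes, edgeR called 3 higher and 1 lower, against 3.96% and 3.83% of all genes. A copy of *snu13* (ENSDARG00000069878), which encodes a protein that binds box C/D RNAs and also the U4 snRNA to which Prpf31 binds, was at 14.6, 18.2 and 17.8 CPM in siblings and 102, 107 and 108 CPM in mutants (log2 fold change 2.65). No mutant was near the siblings. The other copy of *snu13* (ENSDARG00000023299) was not called by edgeR. *shq1*, which encodes an assembly factor of box H/ACA particles, was at 3.63, 3.53 and 4.30 CPM in siblings and 1.28, 1.46 and 1.37 CPM in mutants, all lower (log2 fold change −1.47). The other calls, *fbl*, the methyltransferase of box C/D particles, and *nhp2*, a core protein of box H/ACA particles, were chosen after their values were seen and had log2 fold changes of 0.61 and 0.65.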

How the data were processed

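RNA-seq of zebrafish heads was analysed from 3 sibling and 3 mutant libraries, grouped and numbered by their labels. The authors aligned reads to GRCz11 with HISAT2 2.0.4 and deposited counts per gene without normalization. The labels name HTSeq 0.9.1 for the counting, and the paper also names featureCounts. The FPKM were deposited by the authors from the same counts. The annotation and the use of strand in counting are not given in the sources used here, so overlapping genes may share reads.

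The counts were passed through filterByExpr and TMM scaling before the quasi-likelihood test of edgeR 4.0.16 (R 4.3.3), without covariates. Single sums and shares of a sum were compared by exact permutation. DESeq2 1.42.0 and limma 3.58.1 on log2 FPKM, at a pseudocount of 1 or 0.1 and from 0.5 FPKM upwards, were alternatives, as were other scalings and filters, a block and each library left out. The rest was done in Python 3.11.15 (scipy 1.17.1, pandas 2.3.3). The common biological coefficient of variation over all genes was 0.243. Among siblings, the SD of the subunits had a median of 4.66% of the mean. What limited the precision of single genes was not tested. Tested on simulated data with 200 changed genes, edgeR called 144 of them and 11 unchanged genes. Every gene was simulated with the coefficient of 0.243, changes were at least 2-fold, and no effect of library number was included. The 144 were not split by size of change. How often edgeR calls a gene that changes as little as the subunits did was not tested.

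The members and lists were chosen with earlier results of these data known. The text names all members, *prpf31*, the called cofactors and 5 set ones, the highest and lowest gene of most other lists, the 3 small nucleolar RNA rows with most counts and the 5 genes of most similar pattern. Other names are marked as chosen later. Small nucleolar RNA alternatives were added after the data were seen.

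Deviations from the group means correlated at 0.407, 0.378 and 0.521 between libraries of the same number, over 19334 genes, and at −0.337 to −0.0872 between other numbers. Because each group was centred on its own mean, the values for other numbers are not independent of those for equal numbers. Libraries of equal number were treated as pairs in the block, although no source of pairing is stated. No sequences are printed, as no sequence tables were used here.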

Additional observations from a re-analysis of the deposited data

How the results depend on the processing

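*exosc3*, *exosc4* and *exosc6* to *exosc9* kept a negative sign in all 15 alternatives. Signs turned where changes were near 0. *exosc1* was −0.13 with library sizes alone and −0.12 in the 3 FPKM fits, and ran from −0.25 to 0.22 with each library left out. *exosc2* ran from −0.13 to 0.018, the latter without mutant 1, *exosc10* from −0.11 to 0.031, also without mutant 1, and *exosc5* from −0.095 to 0.11, with 0.0017 in DESeq2 and RLE scaling. *mphosph6* was −0.070 with library sizes alone and −0.083, −0.090 and −0.083 on FPKM, and ran from −0.037 to 0.13. The cause of these turns was not tested.

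Library sizes alone moved the median of all genes to −0.11 and that of the subunits to −0.21. On FPKM the subunits' median was −0.22 or −0.23, with all-gene medians of −0.09, −0.12 and, without a filter, −0.02. *exosc4* was called by DESeq2 (−0.40) and ranged from −0.50 to −0.34 with a library left out, so 1 subunit was called lower by DESeq2 and 0 to 1 with a library left out. *prpf31* lost its call in 8 of the 15 alternatives, with library sizes alone (−0.74), on FPKM (−0.73, −0.76 and −0.73) and without sibling 1, 2 or 3 or mutant 2 (edgeR adjusted p 0.0629 to 0.0898), and ran from −0.70 to −0.56 with a library left out. Cofactors called higher were 0 with library sizes alone, no filter, 10 counts in every library and the 3 FPKM fits, and 0 to 2 with a library left out. Cofactors called lower were 2 with DESeq2 and 2 with the replicate block, and 0 to 4 with a library left out. The block changed no call of a subunit. Small nucleolar RNA rows called higher were 3 with 10 counts in every library and 7 to 32 with a library left out, and all of these changed at least 2-fold. Calls over all genes were 1711 of 22043 tested with that filter and 359 to 4069 with a library left out. The summed ratio of the small nucleolar RNA rows kept its direction.

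The precision rests on 3 pools a group. A p above the threshold does not show equal levels.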
